A study of Mus musculus with 8 samples.

Results

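The STAT factors (signal transducers and activators of transcription) were described through the mRNA of Stat2, Stat3, Stat4, Stat5a, Stat5b and Stat6 in 4 types of CD4 T cells. These 6 genes were taken by their name and not by their values from 29924 gene names on the array. All 6 were among the 15747 genes tested, with a signal well above background on each of the 8 arrays.

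STAT proteins rest in the cytoplasm until a cytokine receptor is engaged. JAK kinases bound to the receptor then phosphorylate them, they associate and enter the nucleus, and they bind DNA next to their target genes. Each factor is known for its own cytokines. STAT4 transmits IL12, STAT6 transmits IL4, STAT3 transmits IL6, IL10 and IL21, and STAT5A and STAT5B transmit IL2, IL7 and IL15. STAT2 works with IRF9 downstream of type I interferon. In CD4 T cells, signals through STAT3 are known to favor TFH cells, whereas IL2 signals through STAT5 maintain Treg cells and oppose Bcl6. The arrays measured mRNA and therefore neither protein nor phosphorylation.

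The study compared T follicular helper (TFH) and T follicular regulatory (TFR) cells with the cells they derive from, naïve CD4 T and Treg cells. All cells came from peripheral lymph nodes (pLN) of B6.Cg-Foxp3<tm1Mal> mice, in which Foxp3 expressing cells carry EGFP, after s.c. immunization with keyhole limpet hemocyanin (KLH) and alum. Mice were 8 to 14 weeks old and of mixed sex, and the labels state pools of 8 to 15 mice. Naïve CD4 T cells were sorted as GFP- PD1lo GL7-, TFH cells as GFP- PD1hi GL7+, Treg cells as GFP+ PD1lo GL7-, and TFR cells as GFP+ PD1hi GL7+/-. For each cell type there was 1 array at d12 and 1 at d25 post immunization (p.i.), which gives n = 2 arrays for each cell type and no replicate within a day. There was no unimmunized group among these arrays.

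Levels are given in relative units (RU), in which the upper quartile of each array is 1500. Between 18254 and 19867 of 39429 probes were well above background on an array. All d12 arrays lay on 1 slide, naïve CD4 T and TFH cells of d25 on the next, and Treg and TFR cells of d25 on another, so that day and slide cannot be told apart. The labels were checked against marker genes. Foxp3 was between 37266 and 49260 RU in Treg and TFR cells and between 66 and 358 RU in the others. Summed over 5 Treg markers with Foxp3 among them, Treg and TFR arrays lay between 110406 and 129654 RU. This sum separated TFH cells less well than Foxp3 did. It reached 17944 RU (d12) and 20228 RU (d25) for TFH, against 1277 and 1390 RU for naïve CD4 T cells. For 5 TFH markers the sum was between 239317 and 866012 RU in TFH and TFR cells and between 24466 and 52358 RU in the others. The summed level of 6 B cell markers was 13704 RU in TFH cells of d25 and between 2155 and 8812 RU on the other arrays. Of these markers Pax5 was at the floor of 20 RU on all arrays. For 6 myeloid markers the sum was between 16718 and 32439 RU, and for 4 markers of CD8 T and NK cells between 2882 and 6274 RU. Klrb1c of this last list was higher in TFH and TFR cells than in their progenitors on both days, whereas Cd8a and Cd8b1 were lower. The summed level of 6 proliferation genes was between 10536 and 39601 RU in TFH and TFR cells and between 1588 and 5021 RU in naïve CD4 T and Treg cells. In such bulk samples fewer cells of a type and less RNA per cell cannot be told apart.

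The letters that stood for the genes on the array are given first, since the probe decides which part of a transcript was measured. Stat2, Stat4 and Stat5a had 1 probe each, Stat3 and Stat5b had 2, and Stat6 had 3. The probe with the highest mean was used for the gene and the others served as a check. The 2 check probes of Stat6, which start within the first 2400 bases of the transcript, are printed whole with 60 bases, and the other probes shown by their last 30 bases. Capitals mark AATAAA, the letters of the polyadenylation signal, which 2 of the 10 STAT probes and 10.6% of all 39429 probes held in their last 30 bases. Positions refer to build NCBI37, as the array files state it, and span the whole probe.
Stat2, chr10:127729834-127729893, + strand, from base 4330 of the transcript: agtccttcgtacgtcatAATAAActtttgt
Stat4, chr1:52163802-52163861, + strand, from base 2758: ctttaccatagatcacaatttatttcttcg
Stat6, chr10:127097689-127097748, + strand, from base 3450: caacccagtatcatttggggagtaactatg
Stat6 check probe, chr10:127083983-127084042, + strand, from base 300: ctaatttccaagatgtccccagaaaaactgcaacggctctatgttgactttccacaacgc
Stat6 check probe, chr10:127095694-127095753, + strand, from base 2354: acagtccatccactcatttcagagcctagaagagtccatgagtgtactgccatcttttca
Stat3, chr11:100749598-100749657, - strand, from base 2953: actcctggctctgcactttcaaccttgcta
Stat5a, chr11:100746373-100746432, + strand, from base 3777: atattttgtacatagaactcaacatttatg
Stat5b, chr11:100642045-100642104, - strand, from base 5195: ttacAATAAAggcgtctccttgaaggacaa

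Stat5a and Stat5b code for closely related proteins and lie next to each other on chromosome 11. Their probes shared no run of letters longer than 7 bases, so the 2 transcripts were measured by different sequences. Across all pairs of STAT probes the longest shared run was 12 bases, between Stat4 and Stat5a.

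Stat4 showed the largest difference between TFH and naïve CD4 T cells among the STAT genes. Its level at d12 and d25 was 7534 and 6947 RU for naïve CD4 T and 19008 and 20855 RU for TFH cells. Treg cells had 9389 and 9705 RU, whereas TFR cells had 10362 and 12359 RU. Thus both TFH arrays lay above all 6 others, and the arrays of the 4 cell types did not overlap. Stat4 rose in TFH over naïve CD4 T cells by 1.46 ± 0.12 (SE, log2 scale, n = 2 arrays per cell type), a 2.75-fold difference with an adjusted p of 0.000914. It was lower in TFR than in TFH cells by 0.82 ± 0.12 (log2 scale, adjusted p = 0.0112). Between TFR and Treg cells the difference was 0.25 with a 95% confidence interval of -0.05 to 0.55 (adjusted p = 0.153), and between Treg and naïve CD4 T cells it was 0.40 (adjusted p = 0.104). The call in TFR versus TFH cells was lost without TFR cells of d12 (-0.70, adjusted p = 0.0866), TFH cells of d25 (-0.78, adjusted p = 0.0597) or TFR cells of d25 (-0.93, adjusted p = 0.0502).

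The change from a progenitor to its follicular cell therefore had a different size for Stat4 in Foxp3+ and Foxp3- cells. TFR minus Treg was 0.14 at d12 and 0.35 at d25 on the log2 scale, and TFH minus naïve was 1.34 and 1.59. The test of this difference gave -1.22 ± 0.16 (SE, adjusted p = 0.0197). Each of the 4 changes was measured within 1 slide. With any 1 of the 8 arrays left out the value stayed between -1.35 and -1.08, but the adjusted p was then between 0.0528 and 0.101, and it was 0.0505 with slide in place of day and 0.0807 without the filter on dim probes. The rise of Stat4 in TFH versus naïve CD4 T cells stayed between 1.33 and 1.59 with any 1 array left out. B cell markers were highest in TFH cells of d25, and their part in this rise was not tested. Neither was that of the CD8 T, NK and myeloid markers. The proliferation genes were higher in TFH and TFR than in naïve CD4 T and Treg cells, and their part in the Stat4 differences was not tested. None of the other 5 STAT genes passed this test of the 2 changes, with adjusted p-values from 0.485 to 0.981, against 4.05% of the 15747 genes called higher and 4.47% called lower.

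**Figure D1:**
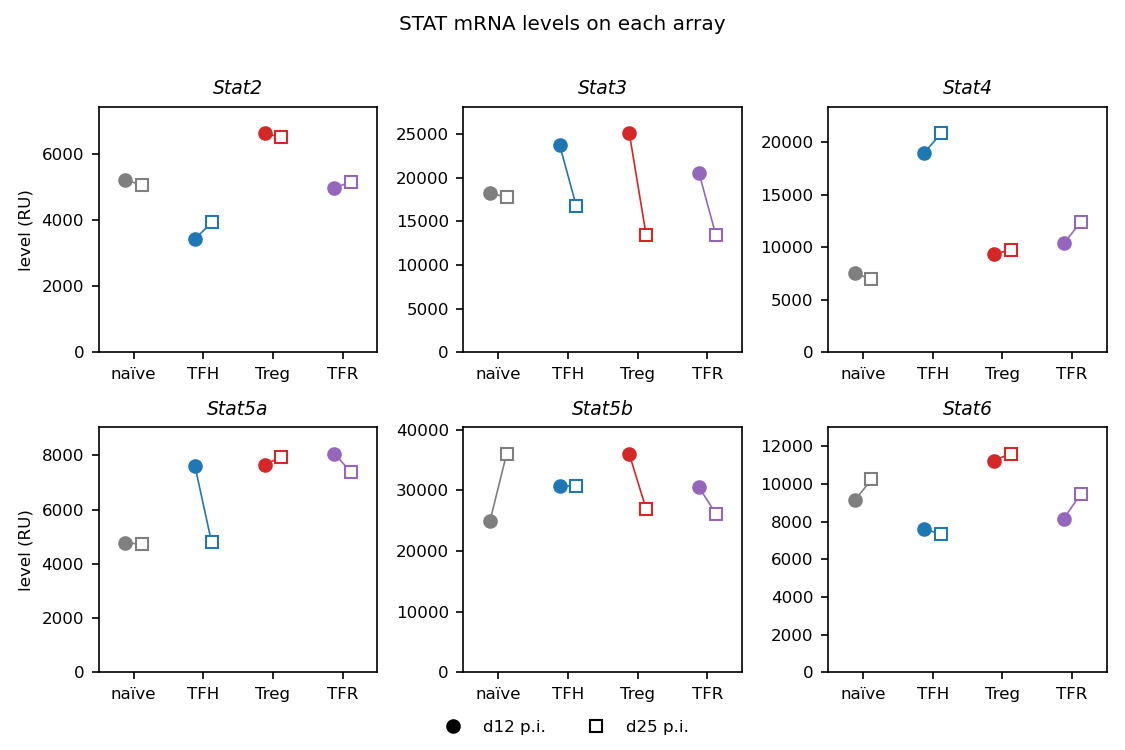
Level of each STAT gene (RU, linear axis from 0) in naïve CD4 T, Treg, TFH, and TFR cells; filled circles are d12 arrays, open squares d25 arrays, and a line joins the 2 arrays of a cell type. Stat4 is highest in both TFH arrays (19008 and 20855 RU), Stat2 and Stat6 are lowest there, and Stat3 is lower at d25 than at d12 in every cell type.

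Stat2, the partner of IRF9 in the interferon response, was lower in both follicular cell types than in their progenitors. At d12 and d25 its level was 5213 and 5041 RU for naïve CD4 T cells but 3406 and 3925 RU for TFH cells. Treg cells had 6613 and 6490 RU, whereas TFR cells had 4965 and 5142 RU. TFH arrays lay below all others, Treg arrays above all others, and TFR and naïve arrays overlapped. The difference was -0.49 ± 0.10 in TFH versus naïve CD4 T cells (log2 scale, adjusted p = 0.0154) and -0.37 ± 0.10 in TFR versus Treg cells (adjusted p = 0.0388). TFR cells exceeded TFH cells by 0.47 ± 0.10 (log2 scale, adjusted p = 0.0335), whereas Treg and naïve CD4 T cells differed by 0.35 (95% confidence interval 0.10 to 0.61, adjusted p = 0.0991). The call in TFH cells was lost without naïve CD4 T cells of d12 (-0.43, adjusted p = 0.0974) or of d25 (-0.55, adjusted p = 0.0558). The call in TFR versus Treg cells was lost without any 1 of the 6 arrays other than TFH (-0.42 to -0.33, lowest adjusted p = 0.0666). That in TFR versus TFH cells was lost without any array but TFH cells of d25 (0.36 to 0.47, lowest adjusted p = 0.0649), and with slide in place of day (0.50, adjusted p = 0.118). The d25 arrays of these 2 cell types lay on different slides.

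Stat6, which transmits IL4 signals, followed the same order of means as Stat2, with Treg cells first and TFH cells last. The d12 and d25 arrays gave 9116 and 10231 RU for naïve CD4 T, 7610 and 7316 RU for TFH, 11235 and 11606 RU for Treg, and 8160 and 9435 RU for TFR cells. No TFH array reached a naïve array and no TFR array reached a Treg array, while TFR and naïve arrays overlapped. Stat6 fell by 0.37 ± 0.10 in TFH versus naïve CD4 T cells (log2 scale, adjusted p = 0.0362) and by 0.38 ± 0.10 in TFR versus Treg cells (adjusted p = 0.0394). The first call was lost without any array but TFH cells of d12 (-0.42 to -0.27, lowest adjusted p = 0.0612), and the second without any array but the TFH arrays (-0.46 to -0.30, lowest adjusted p = 0.071). Both were also lost without a day term (adjusted p = 0.0644 and 0.0709), with slide in place of day (0.0664 and 0.0716) and without the filter on dim probes (0.0706 and 0.0793).

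The 2 check probes of Stat6 measured other parts of the transcript and gave larger differences in the same direction. At d12 and d25 the probe from base 300 fell from 319 and 332 RU (naïve CD4 T) to 124 and 179 RU (TFH), and from 311 and 344 RU (Treg) to 151 and 216 RU (TFR). The probe from base 2354 fell from 886 and 1318 RU (naïve CD4 T) to 478 and 606 RU (TFH), and from 1251 and 1522 RU (Treg) to 779 and 814 RU (TFR). On both probes the follicular arrays lay below those of their progenitors at both days. Fitted among the 20220 probes tested, TFH versus naïve CD4 T cells gave -1.13 ± 0.16 for the probe from base 300 (adjusted p = 0.00526) and -1.01 ± 0.14 for the probe from base 2354 (adjusted p = 0.00523). TFR versus Treg cells gave -0.86 ± 0.16 (adjusted p = 0.0147) and -0.79 ± 0.14 (adjusted p = 0.0133), respectively. The probe from base 3450, with the highest mean, gave -0.37 and -0.38 in the same fit. The direction was thus shared by all 3 probes and the size was not. Whether the probes report different transcripts of Stat6 was not tested.

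**Figure D2:**
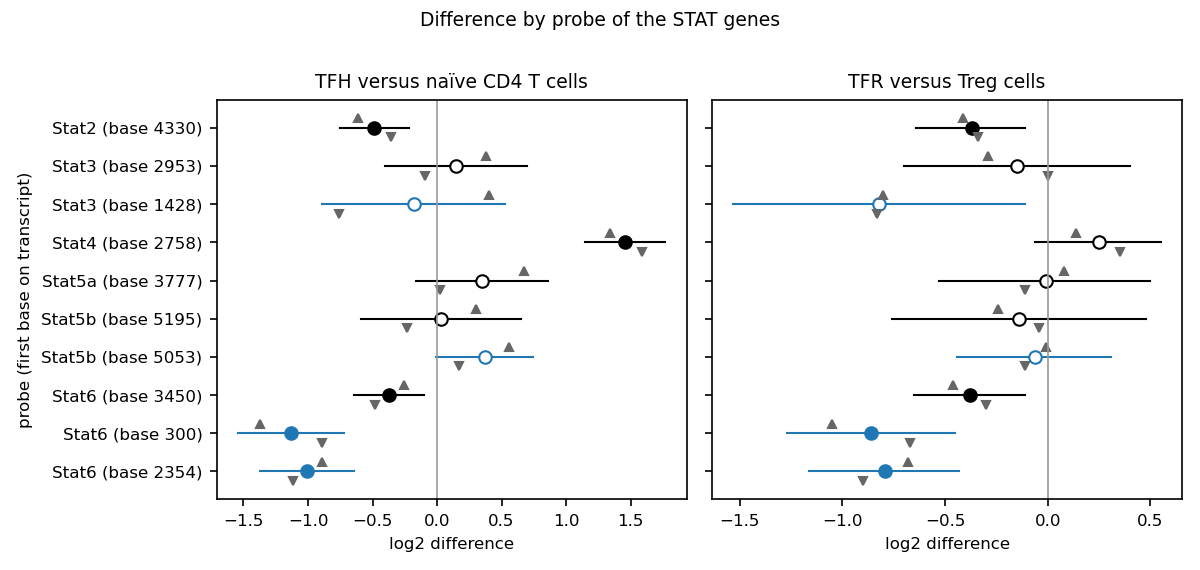
Log2 difference of each STAT probe in TFH versus naïve CD4 T cells (left) and TFR versus Treg cells (right), labelled by the first base of the probe on its transcript. Circles with bars are fitted values with 95% confidence intervals, filled where the adjusted p was below 0.05, black for the probe used and blue for check probes, and gray triangles pointing up and down are the d12 and d25 values. All 3 Stat6 probes lie below 0 on both sides, and the 2 Stat3 probes differ.

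The counts of STAT genes were read against all genes. In TFH versus naïve CD4 T cells, 1 of the 6 STAT genes was called higher against 21.0% of all genes tested, and 2 were called lower against 25.7%. In TFR versus Treg cells none was called higher by limma, at an unadjusted p below 0.05 as well, against 18.8%, and 2 were called lower against 21.0%. With 6 genes, these counts are near the share of all genes. In TFR versus TFH cells 1 was called higher against 11.7% and 1 lower against 10.5%. The median of all genes was -0.07 and -0.08 in the first 2 comparisons, and that of the STAT genes was 0.09 and -0.14. Over the 8 arrays, the highest Stat4 level was 3 times its lowest, at percentile 78.9 of the genes well above background on all arrays, whereas the range was 1.94-fold for Stat2 (percentile 53.4), 1.59-fold for Stat6 (31.2) and 1.45-fold for Stat5b (20.5).

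No STAT gene was called in Treg versus naïve CD4 T cells by limma, while 3 were higher at an unadjusted p below 0.05. At an adjusted p below 0.05, 5.91% of all genes were called higher and 3.99% lower. The share of all genes at the unadjusted threshold was not counted, so the 3 genes have no such share beside them. Stat5a, one of the factors activated by IL2, showed the largest of these differences. The d12 and d25 levels were 4780 and 4720 RU for naïve CD4 T, 7650 and 7939 RU for Treg, and 8064 and 7380 RU for TFR cells. TFH cells had 7621 RU at d12, near the Foxp3+ cells, and 4794 RU at d25, near naïve CD4 T cells. Treg exceeded naïve CD4 T cells by 0.71 ± 0.20 (log2 scale, 95% confidence interval 0.21 to 1.22, adjusted p = 0.0939), and this passed the threshold without TFH cells of d12 (adjusted p = 0.0252) or TFH cells of d25 (adjusted p = 0.0253). TFR and Treg cells differed by -0.01 (95% confidence interval -0.52 to 0.49). TFH versus naïve CD4 T cells gave 0.67 at d12 and 0.02 at d25, with a fitted value of 0.35 (adjusted p = 0.206) that became 0.67 without TFH cells of d25 (adjusted p = 0.0192), the array with the highest B cell markers. TFR exceeded TFH cells by 0.35 (adjusted p = 0.262), and by 0.67 without TFH cells of d12 (adjusted p = 0.0343). The part of the B cell markers in this was not tested.

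Stat5b, the other IL2 activated factor, gave no called difference. Its d12 and d25 levels were 24903 and 36073 RU for naïve CD4 T, 35964 and 26975 RU for Treg, and 30520 and 26178 RU for TFR cells, and 30658 RU for TFH cells on both days. The arrays of the cell types overlapped, except that TFH lay just above TFR arrays. Differences between cell types were within -0.14 and 0.06 on the log2 scale, each with an SE of 0.24. The 95% confidence interval was -0.76 to 0.48 in TFR versus Treg cells and -0.56 to 0.67 in Treg versus naïve CD4 T cells. Changes within these intervals were not excluded. The check probe of Stat5b, from base 5053, gave 0.37 in TFH versus naïve CD4 T cells (adjusted p = 0.0986) where the main probe gave 0.03.

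Stat3, the factor of IL6 and IL21, was called in no comparison. At d12 its level was 18240, 25117, 23792 and 20566 RU for naïve CD4 T, Treg, TFH, and TFR cells, respectively, and at d25 it was 17783, 13501, 16743 and 13484 RU. On this probe every cell type was lower at d25, naïve CD4 T cells least. The fitted difference of d25 versus d12 was -0.51 ± 0.15 (log2 scale, 95% confidence interval -0.90 to -0.12) and was not called (adjusted p = 0.119). No STAT gene was called between the days by limma, against 0.0191% of all genes called higher and 0.0508% called lower. At an unadjusted p below 0.05 in limma, 1 STAT gene was lower, and the share of all genes at that threshold was not counted. Between cell types the Stat3 arrays overlapped and the differences were within -0.26 and 0.15, with adjusted p-values of 0.427 and above. The Stat3 check probe gave 746 and 614 RU for Treg but 427 and 346 RU for TFR cells, which is -0.82 on the log2 scale (adjusted p = 0.0713), against -0.15 by the main probe. In TFH versus naïve CD4 T cells the check probe gave 0.40 at d12 and -0.76 at d25. Between the days it gave -0.25 (adjusted p = 0.439), and for naïve CD4 T cells it was higher at d25 (556 RU) than at d12 (428 RU). The 2 Stat3 probes thus differed in size, and in TFH versus naïve CD4 T cells their fitted signs were opposite (0.15 and -0.18). In the other comparisons of cell types and between the days the fitted signs were the same, with no call on either probe.

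**Figure D3:**
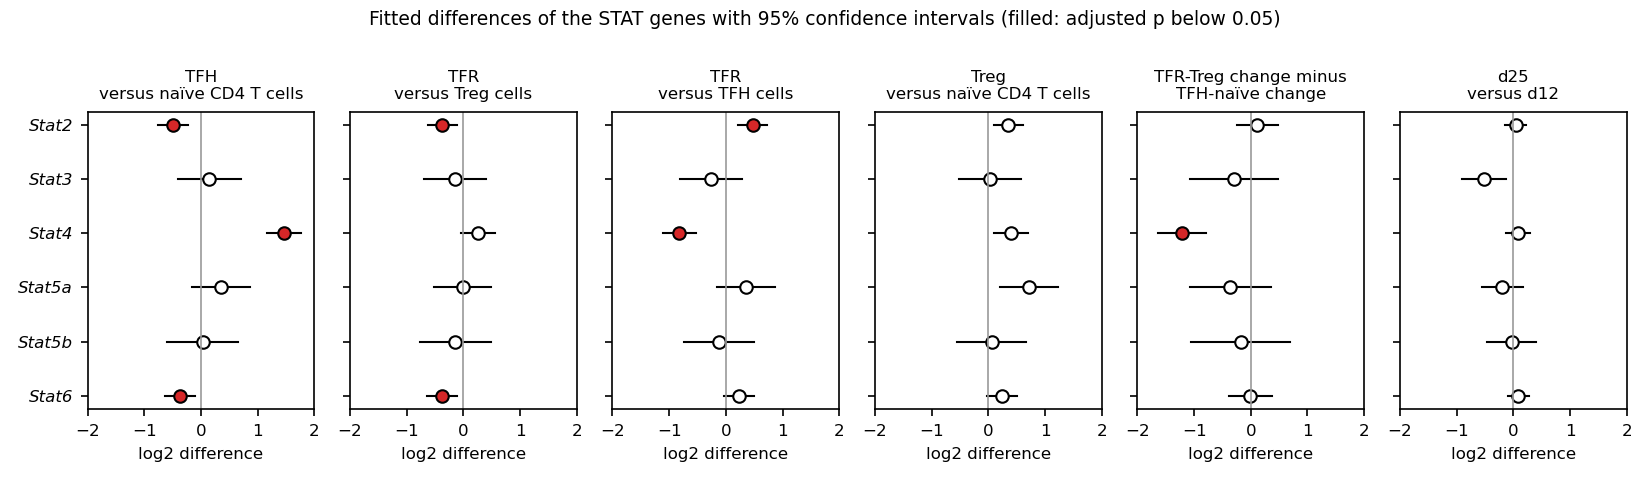
Fitted log2 differences of the 6 STAT genes in the 4 comparisons of cell types, in the difference of the 2 follicular changes, and in d25 versus d12. Bars are 95% confidence intervals and filled circles have an adjusted p below 0.05. Stat4 in TFH versus naïve CD4 T cells (1.46) lies farthest from 0, and no gene is filled in Treg versus naïve CD4 T cells or between the days.

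Patterns over the 8 arrays were described by Pearson r, with no test, since the arrays share cell types, slides and normalization. Stat2 and Stat6 had an r of 0.91, the highest among STAT pairs, and both had a negative r with Stat4 (-0.73 and -0.72). Stat5a and Stat5b had an r of -0.04. Of the 13283 other genes well above background on all arrays, those most like Stat4 were Rac2 (r = 0.99), Rnaset2a (0.989) and Adprh (0.984). Idi1, Lta4h and Eif3b were most like Stat2 (0.983 to 0.984), and Elovl5, Pdha1 and Ap5m1 most like Stat6 (0.973 to 0.984). For Stat3 these were Asb7, Lyrm2 and Rnf6 (0.942 to 0.952), for Stat5a Nt5dc3, Adam19 and a probe without a gene symbol (0.964 to 0.984), and for Stat5b Lrsam1, E230029C05Rik and Dnajc19 (0.928 to 0.986).

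The genes around the STAT factors were taken from 9 lists with 67 genes, some in more than 1 list, of which 63 were tested. Il12rb2, Hlx, Il24 and Pias3 were not, since no cell type had them well above background on its 2 arrays. In TFH versus naïve CD4 T cells 18 of the 63 genes were called higher and 20 lower, with a median of -0.04 against -0.07 for all genes, of which 21.0% were called higher and 25.7% lower. In TFR versus Treg cells 19 were called higher and 18 lower, with a median of 0.02 against -0.08 for all genes, of which 18.8% and 21.0% were called. Between TFR and TFH cells 23 were called higher and 8 lower, with a median of 0.38 against -0.02 for all genes. Of all genes 11.7% and 10.5% were called there. The counts of the single lists below stand against these shares.

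Among the 4 JAK kinases, Jak2 was the one called in TFH cells. From 11442 and 14085 RU for naïve CD4 T it reached 33398 and 46383 RU for TFH cells, a rise of 1.63 ± 0.10 (log2 scale, adjusted p = 0.000471). In TFR versus Treg cells Jak2 rose by 0.64 ± 0.10 (adjusted p = 0.00915), and the difference between the 2 rises was -0.99 ± 0.14 (adjusted p = 0.0221). Jak1 was lower in TFR than in Treg cells by 0.53 ± 0.12 (log2 scale, adjusted p = 0.0236). Jak3 and Tyk2 were called in neither.

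Of the 8 receptors of the IL2 family, 2 were called higher and 4 lower in TFH versus naïve CD4 T cells, with a median of -0.34. Il7r, the IL7 receptor, fell from 41516 and 45385 RU to 1060 and 2539 RU (26.5-fold, adjusted p = 0.000485). Il4ra, the IL4 receptor chain upstream of STAT6, fell from 4844 and 5603 RU to 174 and 328 RU (21.8-fold, adjusted p = 0.000563). A second Il4ra probe gave a smaller fall, -3.06 against -4.45 on the log2 scale. Il2rb rose 7.08-fold (adjusted p = 0.000245). Il9r was at the floor of 20 RU for naïve CD4 T but 827 and 1416 RU for TFH cells, at least 18.5-fold higher (adjusted p = 0.000174); for such genes the brighter mean was set against the lowest signal well above background on the dim arrays. In TFR versus Treg cells 1 was called higher and 4 lower, with a median of -0.55. Il4ra fell there 4.93-fold (adjusted p = 0.00518), from 4887 and 4917 RU to 1098 and 901 RU, and Il2rg by 0.72 on the log2 scale (adjusted p = 0.0104), while Il9r rose by 1.49 (adjusted p = 0.00719).

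Of 9 tested receptors for IL6, IL10, IL12 and interferon, 3 were called higher and 2 lower in TFH cells. Il12rb1, a receptor chain upstream of STAT4, was 786 RU for naïve CD4 T cells on both days and reached 4260 and 3372 RU for TFH cells, a rise of 2.27 ± 0.11 (log2 scale, adjusted p = 0.000275). It rose less in TFR versus Treg cells, by 0.78 ± 0.11 (adjusted p = 0.00701), and a second Il12rb1 probe gave 0.73 and 0.18 for the 2 comparisons. Its partner Il12rb2 was well above background on no array. The 2 chains of the type I interferon receptor moved in opposite directions in TFH cells, with Ifnar1 lower by 0.89 ± 0.15 (log2 scale, adjusted p = 0.00898) and Ifnar2 higher by 0.91 ± 0.11 (adjusted p = 0.00306). Il27ra was lower by 0.58 (adjusted p = 0.00519). In TFR cells 3 were called higher and 4 lower. Il6ra was lower by 1.03 ± 0.10 (log2 scale, adjusted p = 0.00288) and Ifnar1 by 0.81 (adjusted p = 0.0146), while Il23r, at the floor of 20 RU in Treg cells, was at least 2.29-fold higher in TFR cells (adjusted p = 0.0146).

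Of 15 tested inhibitors of the pathway, 3 were called higher and 4 lower in TFH cells and 2 higher and 2 lower in TFR cells. Ptpn11, the phosphatase SHP2, went from 10325 and 10969 RU for naïve CD4 T to 103535 and 143522 RU for TFH cells (11.5-fold, adjusted p = 0.00017), and rose 2.51-fold in TFR versus Treg cells (adjusted p = 0.00264). Ptpn1 rose by 0.74 in TFH cells (log2 scale, adjusted p = 0.0188) and Socs7 by 0.37 in TFR cells (adjusted p = 0.0278). A second Ptpn1 probe gave 0.29 in TFH cells. Cish, an inhibitor induced by STAT5, fell from 2282 and 3296 RU to 686 and 723 RU with TFH (3.90-fold, adjusted p = 0.000656), and Pias1 by 0.64 on the log2 scale (adjusted p = 0.0221). Socs2 fell from Treg (9973 and 10038 RU) to TFR cells (2911 and 3984 RU, adjusted p = 0.0113), and Ptpn2 by 0.63 on the log2 scale (adjusted p = 0.00642).

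**Figure D4:**
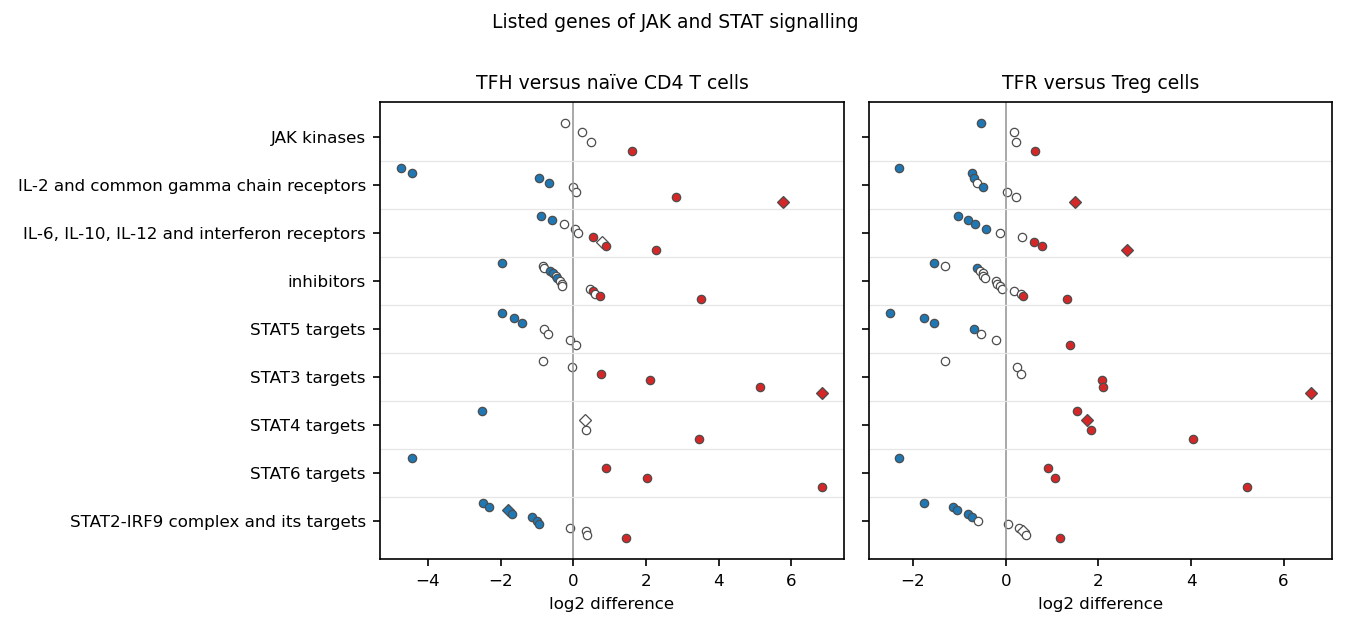
Log2 difference of each tested gene of the 9 lists in TFH versus naïve CD4 T cells (left) and TFR versus Treg cells (right). Points filled red or blue are genes called higher or lower, open points were not called, and diamonds are genes not well above background on every array, whose distance from 0 depends on the floor of 20 RU.

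Lists of known targets were read in the same way, although their genes also answer to other factors. Of 7 STAT5 targets, none was called higher by limma in TFH versus naïve CD4 T cells (none at an unadjusted p below 0.05) and 3 were lower, with a median of -0.80. The largest falls were those of Cish and of Bcl2, a survival gene (3.08-fold, adjusted p = 0.00235). In TFR versus Treg cells 1 was called higher and 4 lower. Prdm1, which codes for BLIMP1, rose by 1.38 (log2 scale, adjusted p = 0.00924), while Bcl2 fell 5.67-fold (adjusted p = 0.00131) and Osm by 1.77 (adjusted p = 0.00296). In TFR versus TFH cells 5 of the 7 were called higher and none lower by limma (none at an unadjusted p below 0.05), with a median of 2.66. Of all genes 11.7% were called higher and 10.5% lower there. Cish was 26697 and 30298 RU in TFR cells, 40.4-fold above TFH cells (adjusted p = 0.000428), whereas Stat5a and Stat5b themselves were not called. Il2ra, among the 5 genes called higher, is also among the Treg markers above. The study had already reported patterns of Cish and Socs2 like that of Il2ra.

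Of 6 STAT3 targets, 4 were called higher in TFH and 3 in TFR cells and none lower by limma, with medians of 1.43 and 1.21; at an unadjusted p below 0.05 none was lower in either. Il21 rose from 259 and 182 RU to 23726 and 26350 RU between naïve CD4 T and TFH cells (adjusted p = 0.000182), and was at least 36.3-fold higher in TFR than in Treg cells (adjusted p = 0.000469). Maf rose by 5.14 ± 0.25 in TFH cells (log2 scale, adjusted p = 0.000268). Batf rose by 2.12 in TFH and by 2.11 in TFR cells (adjusted p = 0.000296 and 0.000658). Il21 is also among the TFH markers above.

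Of 4 tested STAT4 targets, 1 was called higher and 1 lower in TFH versus naïve CD4 T cells. Stat4 itself was highest in TFH cells. In this comparison Ifng rose by 3.47 ± 0.43 (log2 scale, adjusted p = 0.00343) and Il18r1, an IL18 receptor chain, fell 5.67-fold from 3243 and 3686 RU to 466 and 799 RU (limma adjusted p = 0.000536). In TFR versus Treg cells all 4 were called higher, with a median of 1.80, but Il18rap only at the threshold (adjusted p = 0.0499). There Ifng rose by 4.05 ± 0.43 (adjusted p = 0.00337) and Tbx21, which codes for T-bet, by 1.84 ± 0.21 (adjusted p = 0.00412), while Stat4 was not called. For Il18r1 the difference between the 2 changes was 4.03 ± 0.23 (log2 scale, adjusted p = 0.00335).

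Of 4 tested STAT6 targets, 3 were called higher and 1 lower in both TFH and TFR cells. Il4, at 843 and 450 RU with naïve CD4 T cells, reached 68135 and 74917 RU with TFH cells (116-fold, adjusted p = 0.000441) and 37.1-fold in TFR versus Treg cells (adjusted p = 0.0017). Ccr4 rose by 2.02 and 1.06 (log2 scale, adjusted p = 0.000334 and 0.00309). Il4ra was the target that fell, as did Stat6.

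The list of IRF9, the partner of STAT2, and their targets held genes called in both directions, more of them lower. Of 11 genes 1 was called higher and 7 lower in TFH versus naïve CD4 T cells, with a median of -1.0, and 1 higher and 5 lower in TFR versus Treg cells, with a median of -0.60. Usp18, an inhibitor of interferon signaling, fell 5.61-fold from naïve CD4 T (5275 and 5586 RU) to TFH cells (682 and 1373 RU, adjusted p = 0.00188). From Treg (7989 and 9299 RU) to TFR cells (2438 and 2664 RU) it fell as well (3.38-fold, adjusted p = 0.00723). Ifit3 fell by 2.31 ± 0.10 in TFH cells (log2 scale, adjusted p = 0.000215) and Ifit1 by 1.14 ± 0.11 in TFR cells (adjusted p = 0.0027). Irf9, named here for its role and after its values were seen, was 22150 and 25893 RU for naïve CD4 T and 11345 and 13648 RU for TFH cells (adjusted p = 0.00106), against 25200 and 30893 RU for Treg and 14361 and 17393 RU for TFR cells (adjusted p = 0.00267). The list did not move as a whole, since Mx1 rose by 1.46 in TFH cells (adjusted p = 0.00138) and Oas1a by 1.18 in TFR cells (adjusted p = 0.0381). Isg15 was between 30947 and 48861 RU on all arrays and was not called in either. In TFR versus TFH cells 6 of the 11 were called higher and none lower by limma (none at an unadjusted p below 0.05). Of all genes 11.7% were called higher and 10.5% lower there. The proliferation genes were also higher in both follicular cell types, and their part in the falls of Stat2, Stat6 and these genes was not tested.

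**Figure D5:**
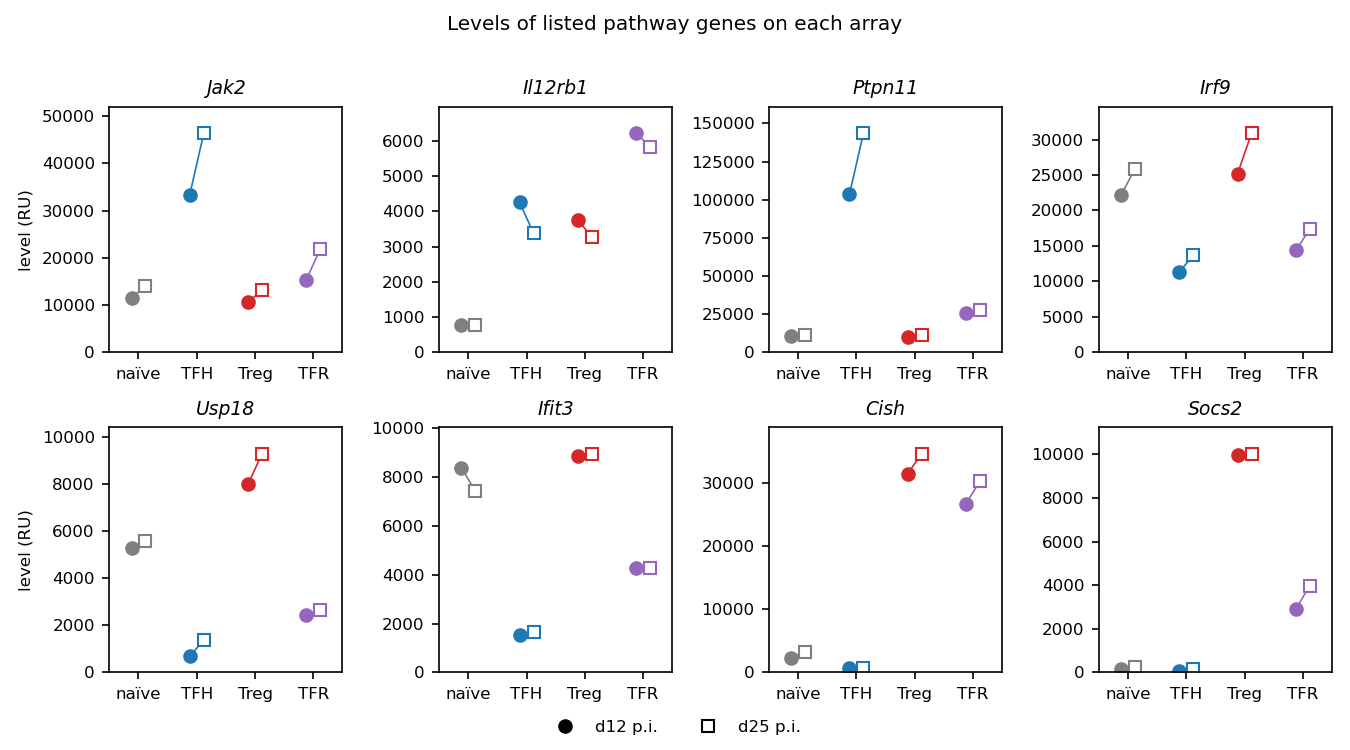
Levels (RU, linear axis from 0) of 8 genes of the pathway lists in naïve CD4 T, Treg, TFH, and TFR cells, chosen after their values were seen; filled circles are d12 arrays and open squares d25 arrays. Jak2 and Ptpn11 are highest in TFH cells, Irf9, Usp18 and Ifit3 are lower in both follicular cell types than in their progenitors, and Cish and Socs2 are high only in Treg and TFR cells among these 4 cell types.

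The promoters of these genes were searched for letters that STAT factors are known to bind, from 250 bases before to 50 bases after the gene start (RefSeq, GRCm38.p6). GAAA followed after any 2 bases by GAAA again, the core of the interferon-stimulated response element bound by STAT2 with IRF9, was searched on both strands (TTTC on the other) and was present in 3.44% of all 32851 promoter windows and for 3.99% of all genes with one. It was found for 5 of the 8 genes of the STAT2-IRF9 list with a promoter in the table, and for Stat2 and Stat4 among the 6 STAT genes. Windows of 30 bases around the match are shown for Stat2 and for 3 of the targets, with the match in capitals.
Stat2, chr10:128270266-128270295, + strand: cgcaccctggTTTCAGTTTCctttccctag
Ifit1, chr19:34640785-34640814, + strand: TTTCACTTTCcagtctcagTTTCAGTTTCt
Ifit3, chr19:34583397-34583426, + strand: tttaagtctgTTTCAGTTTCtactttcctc
Isg15, chr4:156200871-156200900, - strand: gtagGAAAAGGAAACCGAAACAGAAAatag
Ifit1 and Ifit3 fell in TFH and TFR cells, whereas Oas1a, which also held a match, was called higher in TFR cells. The called genes with these letters thus did not share a direction in TFR cells. Isg15, with 3 overlapping matches, and Rsad2, also with a match, were called in neither TFH nor TFR cells. Irf9, Irf7 and Ifi44 held no match in this window.

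TTCNNNGAA, a palindromic site of STAT dimers, reads the same on both strands. It was present in 8.30% of all promoter windows, for 9.55% of all genes with one, and in none of the 6 STAT promoters. Sites with a longer spacer were not searched. Among the STAT5 targets it was found for Cish, and among the STAT3 targets for Socs3, each 1 of 5 genes with a promoter in the table. Among the STAT4 targets 3 of 6 held it (Ifng, Il18r1 and Il12rb2), as did 3 of 6 receptors for IL6, IL10, IL12 and interferon (Il12rb2, Ifnar1 and Ifnar2). The windows of Cish and Socs3 are shown.
Cish, chr9:107296654-107296683, + strand: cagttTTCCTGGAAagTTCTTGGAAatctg
Socs3, chr11:117969501-117969530, - strand: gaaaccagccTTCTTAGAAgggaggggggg
Cish was high in Treg and TFR cells as given above. The level of Socs3, like Isg15 and Rsad2 named here for its promoter and after its values were seen, was 24258 and 14332 RU for naïve CD4 T but 27186 and 4059 RU for TFH cells at d12 and d25, with no call. A match is a description of the sequence and not a measured binding site.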

How the data were processed

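Levels were measured on 8 one-color Agilent arrays. The authors extracted background-corrected spot intensities with Agilent Feature Extraction 10.7.3.1 and deposited them together with a table of normalized intensities. From the spots, flagged spots, outliers by the interquartile range of the 4 replicate spots and spots with a pixel coefficient of variation above 0.5 were left out here. The geometric mean was then quantile normalized, scaled to an upper quartile of 1500, floored at 20 and log2 transformed, as the study's methods state. The STAT levels lay 0.08 to 0.27 (log2) above those of the authors' table.

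Differences were fitted with limma 3.58.1 in R 4.3.3 (lmFit, eBayes; cell type and day; 3 residual degrees of freedom, 1.91 from the prior). P-values were Benjamini-Hochberg adjusted over 15747 genes and called below 0.05. The methods' ANOVA with Tukey's test needs replicates at a day and was not run. A gene was its probe with the highest mean, tested if both arrays of at least 1 cell type had it well above background. P-values measure how far these arrays, each a pool, depart from the sum of a cell type effect and a day effect. They do not measure a spread between replicate pools. A change between the days in 1 cell type alone counts toward this departure. The fit was checked on simulated data. Named genes were the 6 members, their check probes, the 3 genes most like each, and up to 2 called genes of each list with the largest rise and fall in TFH versus naïve CD4 T and in TFR versus Treg cells. Members and lists were chosen with earlier results of these data known. The number of arrays limits the precision. Alternatives were scaling without quantile normalization, normexp, the authors' table, no spot exclusion, no day term, slide in place of day, the mean of all probes, no or a stricter filter, a variance trend, and leaving out each array; the closing section gives their effect. The level of 1 marker gene and the letters of 1 check probe are not reported here.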

Additional observations from a re-analysis of the deposited data

Results flagged for a closer look

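The follicular change of Stat4 differed between Foxp3+ and Foxp3- cells. TFR minus Treg was smaller than TFH minus naïve CD4 T cells by 1.22 on the log2 scale (-1.22 ± 0.16, limma adjusted p = 0.0197), with -1.19 at d12 and -1.24 at d25. The difference itself was tested, and the cause was not. The call was lost with slide in place of day (adjusted p = 0.0505), without the filter on dim probes (adjusted p = 0.0807) and without any 1 of the 8 arrays (lowest adjusted p = 0.0528).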

How the results depend on the processing

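The rise of Stat4 in TFH versus naïve CD4 T cells was called under all 18 alternatives (1.33 to 1.59). The other calls lay near the threshold. In TFH versus naïve CD4 T cells 3 STAT genes were called, and 2 without a day term, with slide in place of day and without a filter on dim probes, where Stat6 was lost. The number of STAT genes called in TFR versus Treg cells was 2 and fell to 0 without a day term, with slide in place of day and without a filter on dim probes. In TFR versus TFH cells it was 2, with 1 for slide in place of day (Stat2 lost), 0 without the filter and 3 for the mean of all probes. In Treg versus naïve CD4 T cells it was 0, with 1 (Stat5a) under normexp background correction and with a variance trend. For the difference of the follicular changes it was 1, with 0 for slide in place of day and without the filter. Leaving out each array gave 1 to 3 STAT genes in TFH versus naïve CD4 T cells, 0 to 2 in TFR versus Treg, 0 to 2 in TFR versus TFH, 0 to 1 in Treg versus naïve CD4 T cells and 0 to 0 for the difference of the follicular changes and between the days. The lone array was then assumed to vary like the other cell types. No called STAT value changed sign under any alternative. Genes called among all tested ranged over the alternatives from 4351 to 7833 (7347 in the reported fit) in TFH versus naïve CD4 T cells, 2502 to 6832 (6261) in TFR versus Treg, 981 to 4271 (3493) in TFR versus TFH, 424 to 2092 (1558) in Treg versus naïve CD4 T cells, 297 to 1833 (1341) for the difference of the follicular changes and 0 to 1141 (11) between the days. Of the 63 listed genes 31 to 44 (38), 20 to 40 (37), 10 to 36 (31), 7 to 22 (17), 4 to 22 (17) and 0 to 3 (0) were called in the same order of comparisons. Between the days normexp also moved the share of higher among called genes from 27.3% to 61%. Without quantile normalization the median of all genes in TFH versus naïve CD4 T cells was -0.13. The labels give no replicate numbers, and the day term already blocks the arrays of a day. Having 2 arrays per cell type limits what can be called.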
